A study of Mus musculus with 16 samples.

Results

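T1 is a subcluster of cells annotated as T cells in the left ventricle of the mouse heart. Its members were the cells whose subcluster in the deposited annotation is T1, and they numbered 196 of 606 T cells (32.3%) and of 11492 cells in all. The other T subclusters held 137 (T2), 147 (T3), 90 (T4) and 36 (T5) cells. The cells came from 16 male mice of a TAC model (transverse aortic constriction, where surgery that narrows the aorta makes the ventricle work against more pressure), with 2 mice at 0 weeks, 2 at 2 weeks, 7 at 5 weeks, 3 at 8 weeks and 2 at 11 weeks (0w to 11w). The labels give no strain or age, and they do not say whether the 0w mice had surgery. Protease XXIV with collagenase II served to enrich myocytes, a papain enzyme served to enrich other cells, and polyadenylated RNA was counted per cell as unique molecular identifiers (UMIs).

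A T cell recognises antigen with a receptor of variable chains, which passes its signal on through the CD3 chains. The receptor genes are assembled in the thymus by the RAG recombinase, while terminal transferase (Dntt) adds bases at the joints, and most developing cells pass a stage that carries both CD4 and CD8. Mature CD4 cells help other cells, CD8 cells kill infected ones, and natural killer (NK) cells and B cells are other lymphocytes that a T cell cluster can hold.

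T1 cells came from 11 of the 16 mice, and 7 mice gave at least 5 of them. There were 56 and 76 in 0w replicates 1 and 2, 2 and 12 in 2w replicates 1 and 2, and 14, 1 and 4 in 5w replicates 1 to 3. At 8w replicates 1 and 2 gave 15 and 1 cells, and 11w replicates 1 and 2 gave 9 and 6. The remaining 5 mice, 4 at 5w and 1 at 8w, gave 0. The cells lay unevenly on the 12 plates that the cell names give, lettered here A to L in order of stage. Plate B, with 0w mice only, held 130 T1 cells (66.3%), and plate E, with 5w replicate 1 and 8w replicate 1, held 29. T2 lay mostly on plate A (93 of 137 cells), on which 77.6% of all cells were cardiomyocytes. Stage and plate therefore cannot be told apart for most of what follows. Nor can subcluster and plate where T1 is compared with T2 or T5. Plate B held 0 T2 cells and plate A 2 T1 cells, while plate F held 30 of the 36 T5 cells and 5 T1 cells.

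**Figure D1:**
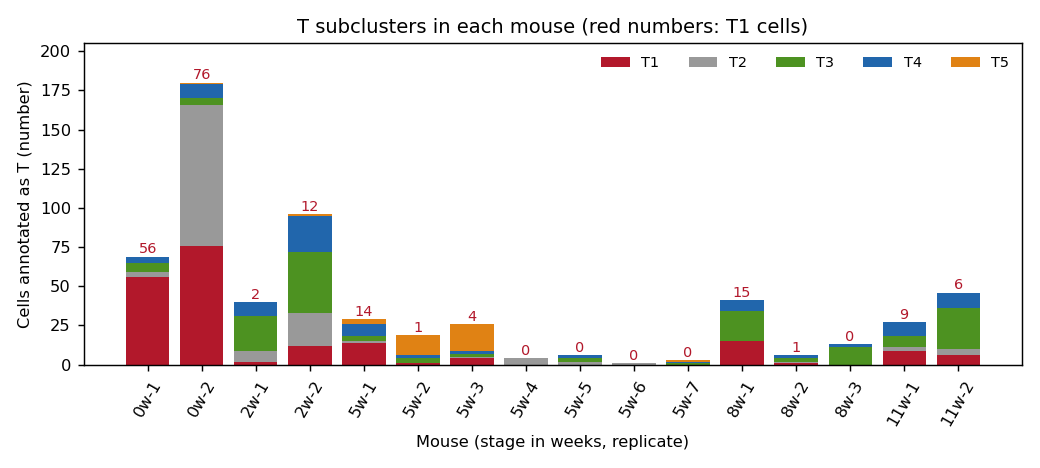
Number of cells annotated as T (vertical axis) in each of the 16 mice (horizontal axis, stage and replicate), stacked by subcluster, with the number of T1 cells in red above each bar. The 2 mice at 0w hold 56 and 76 of the 196 T1 cells.

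Depth was uneven between cells. The median T1 cell had 17266 UMIs outside the 34 mitochondrially encoded genes (range 1099 to 490179) and 1158 detected genes, and those 34 genes took 40.7% of T1 UMIs. The median was 13417 UMIs in T2, 12463 in T3, 12426 in T4 and 21847 in T5. The 10 deepest T1 cells gave 35.0% of its UMIs, so for some genes, not all, the number of cells behind a level is given. Levels are in CPM, UMIs summed over the cells of a subcluster and scaled to a common total of UMIs outside the mitochondrial genes, and are compared between groups of cells and not between genes. Differences between subclusters are log2 ratios of CPM after adding 10. They are means over mice with at least 5 cells of both subclusters against T3 (5 mice) and T4 (6 mice), and ratios of sums over all mice against T2 and T5, where under 3 mice allowed this. Since the subclusters were made from the same genes, these differences describe T1 and were not tested.

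The genes that define a T cell were present in T1. Trbc2, a constant segment of the receptor's beta chain, had 1802 CPM in T1 beside 299 in T2, 114 in T3, 843 in T4 and 3312 in T5. It was detected in 155 of 196 cells (79.1%). By mouse it stood at 2993 and 1685 CPM in 0w replicates 1 and 2, 2963 in 2w replicate 2, 1326 in 5w replicate 1, 1251 in 8w replicate 1, and 2178 and 668 in 11w replicates 1 and 2. It was above the other T cells of the same mouse in 6 of 7 mice, the exception being 5w replicate 1 with 1612 CPM in its other T cells.

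The log2 difference of Trbc2 was 2.55 against T2, 5.02 ± 2.03 against T3 (SD, n = 5 mice) and 2.03 ± 1.64 against T4 (n = 6), with every compared mouse higher in T1, and −0.87 against T5. Thinned by calculation to 1000 UMIs per cell, 53.8% of T1 cells would hold a Trbc2 UMI, beside 23.9%, 6.45%, 28.8% and 80.7% in T2 to T5 and 1.49% in macrophages. On plate B the level was 2212 CPM in T1 and 37.9 CPM in all cells not annotated as T.

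The 2 markers given for this subcluster were unequal. Cd3g, a signalling chain of the receptor complex, had 577 CPM in T1 and was detected in 68 cells (34.7%). In the 7 mice in the same order it read 931, 604, 248, 770, 409, 79.9 and 609 CPM, higher than in the other T cells of the mouse in 4 of 7. Cd3e, a sister chain, had only 32.3 CPM in T1 and was detected in 20 cells (10.2%); it was listed at 0 in 3 of the 7 mice, and its level was 26.3 CPM in T2, 7.70 in T3, 10.7 in T4 and 65.4 in T5. At least 1 of Cd3d, Cd3e and Cd3g was detected in 58.2% of T1 cells (exact 95% interval 50.9 to 65.2, for counting error only), and a CD3 gene or a Trbc gene in 90.3%, which left 19 cells with neither.

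Lck, Bcl11b and Lat were higher in T1 than in T2 and T3. Lck, the kinase that first phosphorylates the CD3 chains, had 406 CPM in T1 beside 66.9, 59.4, 184 and 653 in T2 to T5. Bcl11b, a transcription factor of commitment to the T lineage, had 166 CPM in T1 and 0.616 in T3, a log2 difference of 4.37 ± 1.19 (n = 5 mice). In 2w replicate 2 and 11w replicate 2, among those mice, Bcl11b was detected in 1 T1 cell each. Lat, the adaptor behind the receptor, had 449 CPM in T1, 111 in T2, 18.8 in T3, 303 in T4 and 443 in T5. Not all T cell genes were high: Cd2, an adhesion receptor, had 269 CPM in T4, and its log2 difference in T1 against T4 was −2.29 ± 1.76 (n = 6 mice), lower in T1 in 6 of 6 mice.

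Counted over the list of 16 T cell genes, those with at least 50 CPM on either side of a comparison were read, which a gene can pass through its high side alone. Against T2, 8 of 12 were at least 2-fold (1 on the log2 scale) higher in T1 and 2 lower, while 39.5% of all 4297 genes read were higher and 16.5% lower. Against T3, 9 of 11 were higher and 1 lower, beside 21.1% higher and 16.1% lower over all genes. Against T4, 4 of 14 were higher and 2 lower, beside 24.2% and 10.8%. Against T5, 0 of 13 were higher and 6 lower, beside 23.0% and 28%. The list's median log2 difference was 1.31, 2.62, −0.33 and −0.93 in this order, and that of all genes was 0.71, 0.09, 0.22 and −0.24. A separate list of 18 T cell signalling genes summed to 943 CPM in T1, 551 in T2, 1086 in T3, 2819 in T4 and 1386 in T5. Of its genes read against T3, 2 of 8 were higher in T1 and 2 lower, and against T4, 0 of 12 were higher and 4 lower.

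Reads of the rearranging receptor genes came from all 4 chains. Variable segments of the beta chain summed to 139 CPM in T1, from 9 of 23 such genes, beside 7.94 in T2, 0 in T3, 0.344 in T4 and 114 in T5. Variable segments of the alpha chain summed to 122 CPM, and the constant segment Trac had 3.97 CPM. Segments of the gamma chain summed to 35.2 CPM, beside 216 in T5, and of the delta chain to 37.0 CPM.

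Of the coreceptors, the CD8 genes were found in more T1 cells than Cd4. Cd8b1, the beta chain of CD8, had 384 CPM in T1 beside 95.9 in T2, 11.7 in T3, 261 in T4 and 525 in T5. By mouse, in the order above, it had 327, 346, 122, 357, 905, 180 and 223 CPM. These levels came from 12, 15, 2, 3, 7, 2 and 2 T1 cells. They were above the other T cells of the mouse in 6 of 7 mice, with 11w replicate 1 the exception (351 CPM in its other T cells). The log2 difference was 3.87 ± 1.60 against T3, higher in 5 of 5 mice, and 2.69 ± 3.29 against T4, higher in 4 of 6. Cd8a, the alpha chain, had 173 CPM in T1 and 157 in T2, and was listed at 0 in 2w replicate 2.

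Cd4 had 22.1 CPM in T1 beside 67.8 in T2, 6.78 in T3, 1.72 in T4 and 52.0 in T5. It was detected in 19 T1 cells (9.69%), and a CD8 gene in 83 (42.3%). A CD8 gene without Cd4 was found in 74 cells (37.8%), Cd4 without a CD8 gene in 10 (5.10%) and both in 9 (4.59%). In the other 103 cells (52.6%) neither was found, which at these levels does not show that a cell lacked them. In T5, both were found in 12 of 36 cells (33.3%).

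**Figure D2:**
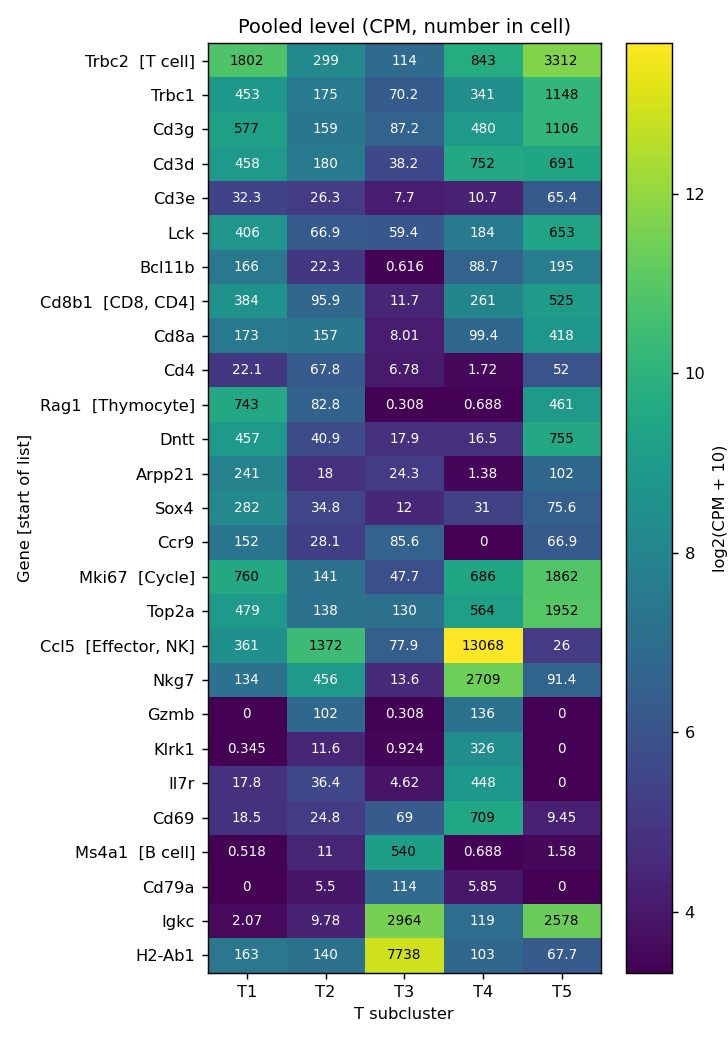
Level of 27 genes (rows, with the start of each gene group in brackets) in the subclusters T1 to T5 (columns); the number in each cell is the pooled CPM and the colour its log2 after adding 10. T1 shows Trbc2 at 1802 and Rag1 at 743 CPM, with Ccl5 highest in T4 and H2-Ab1 highest in T3.

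Genes of T cell development in the thymus were mostly higher in T1 than in T3 and T4. Rag1, a subunit of the recombinase, had 743 CPM in T1 beside 82.8 in T2, 0.308 in T3, 0.688 in T4 and 461 in T5, and was detected in 87 T1 cells (44.4%). In the 7 mice it had 1460, 839, 0, 565, 465, 1618 and 89.1 CPM, so every mouse but 2w replicate 2 had it. The other T cells of the same mice had 11.3, 148, 5.75, 45.4, 0, 0 and 0 CPM, lower in 6 of 7 mice. The log2 difference was 3.02 against T2, 4.65 ± 3.14 against T3 (higher in 4 of 5 mice), 4.75 ± 2.68 against T4 (higher in 5 of 6 mice and lower in 0) and 0.67 against T5.

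Cells without a T annotation also held some Rag1, which gives its background. On plate B, Rag1 was detected in 51.5% of T1 cells and 8.95% of the other types' cells, at median depths of 17773 and 22739 UMIs and levels of 1092 and 32.3 CPM. On plate E it was detected in 44.8% of T1 cells and 1.51% of the others, at 511 and 3.55 CPM. At 1000 UMIs per cell, 29.4% of T1 cells would hold a Rag1 UMI, beside 9.44% in T2, 0.0781% in T3, 0.296% in T4, 16.0% in T5 and 0.705% in macrophages.

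Dntt had 457 CPM in T1 beside 40.9 in T2, 17.9 in T3, 16.5 in T4 and 755 in T5, but 1 cell gave 43.2% of its T1 UMIs. By mouse it had 1022 CPM in 0w replicate 2, 320 in 5w replicate 1, 7.01 in 2w replicate 2, and 0 and 59.4 in 11w replicates 1 and 2. The remaining 2 mice lay between 59.4 and 320 CPM, and 0w replicate 2 stood far above the rest. Rag1 or Dntt was detected in 55.1% of T1 cells, 36.5% of T2, 2.72% of T3, 8.89% of T4 and 86.1% of T5. Rag1 was found together with a CD3 or Trbc gene in 81 T1 cells (41.3%) and together with a CD8 gene in 40 (20.4%).

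Further genes of the thymocyte list differed in which mice carried them. Sox4, a transcription factor of lymphocyte progenitors, had 620 and 445 CPM in 0w replicates 1 and 2 and between 0 and 44.5 CPM in the other 5 mice. On plate B the cells outside T also held Sox4, at 224 CPM beside 522 in T1. Ccr9, a homing receptor for a chemokine of thymus and gut, had 285, 222, 70.1, 49.5, 22.1, 340 and 0 CPM. Arpp21, an RNA-binding phosphoprotein, was found in all 7 mice, at 2.34 to 345 CPM. Themis, a protein of T cell selection in the thymus, was highest in 8w replicate 1, at 229 CPM. Leaving out plate B, the mean log2 difference from T2 and T3 was 0.12 for Sox4 (2.00 with it), 0.85 for Ccr9 (2.05), 1.51 for Dntt (2.47) and 2.98 for Rag1 (3.84). It was 2.56 for Arpp21 (2.61) and 1.90 for Themis (1.66).

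Of the 16 thymocyte genes, 9 were over 50 CPM in T1, but Rag2 and Ptcra were scarce. Rag2, the partner of Rag1 in the recombinase, had 0.864 CPM in 3 cells, and Ptcra, the alpha chain of the receptor's precursor form, 0.173 CPM in 1 cell. Of the list, 10, 9, 9 and 10 genes were read against T2, T3, T4 and T5. At least 2-fold higher in T1 were 6, 8, 8 and 3 of them and lower were 1, 1, 0 and 3, with medians of 1.99, 2.02, 2.55 and −0.58. Over all genes read, 39.5, 21.1, 24.2 and 23.0% were higher and 16.5, 16.1, 10.8 and 28% lower, with medians of 0.71, 0.09, 0.22 and −0.24. The summed level of the list was 2682 CPM in T1, 622 in T2, 566 in T3, 519 in T4 and 3259 in T5. By mouse in T1 the sum was 3535, 3503, 622, 2083, 2627, 2697 and 713 CPM, lowest in 2w replicate 2 and 11w replicate 2.

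**Figure D3:**
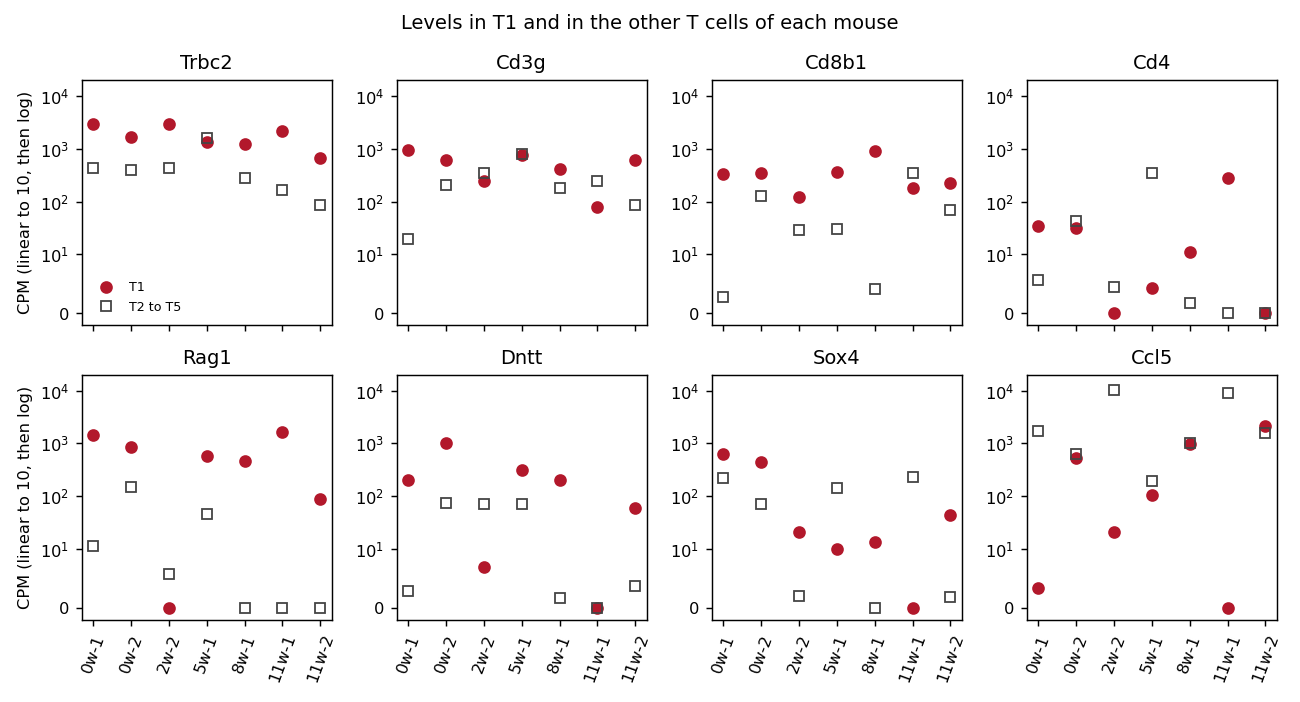
Level of 8 genes (panels) in T1 (red circles) and in the other T cells (T2 to T5, open squares) of the 7 mice with at least 5 T1 cells, in CPM on an axis that is linear up to 10 and logarithmic above. Trbc2, Cd8b1 and Rag1 are above the other T cells in 6 of 7 mice and Cd3g in 4 of 7, while Ccl5 is above them in 1 of 7.

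The values of the cell cycle genes Mki67, Top2a and Tpx2 depended on a few deep cells. Mki67, a protein of dividing cells, had 760 CPM in T1, 141 in T2, 47.7 in T3, 686 in T4 and 1862 in T5, yet was detected in only 28 T1 cells (14.3%). At 1000 UMIs per cell 6.09% of T1 cells would hold one, beside 6.75% in T2 and 62.1% in T5. The mean log2 difference of Mki67 from T2 and T3 was 1.89, and −0.070 without the 10 deepest T1 cells. For Top2a, the topoisomerase of dividing cells, it was 1.28 and 0.12. Mki67 or Top2a was found in 28.6% of T1 cells, 30.7% of T2 and 97.2% of T5. Of 18 cell cycle genes, 12 of 17 read were at least 2-fold higher in T1 than in T2 and 1 lower, beside 39.5% and 16.5% of all genes. Against T5, 1 of 18 was higher and 13 lower, beside 23.0% and 28%. The other members of the list were not read without the deepest cells.

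B cell genes set T1 apart from T3. Cd79a, a signalling chain of the B cell receptor, was at 0 UMIs in T1, where 3 UMIs would be 0.518 CPM. In T3 it had 114 CPM. Igkc, the antibody kappa chain, had 2.07 CPM in T1 and 2964 in T3, lower in T1 in 5 of 5 mice. Ms4a1, the surface protein CD20, had 0.518 CPM in T1 and 540 in T3. Cd79a or Ms4a1 was found in 3 T1 cells (1.53%) and in 69 T3 cells (46.9%). The list of B cell genes summed to 406 CPM in T1 and 8574 in T3, and 3 of its 14 measured genes were over 50 CPM in T1. These were Ly6d, a surface protein of early B cells and of some other cells, with 226 CPM in 20 T1 cells beside 1097 in T3, Cd37, a surface tetraspanin, with 79.3 beside 252, and Ighm, the antibody mu chain, with 64.1 beside 1509. By mouse Ly6d had 15.0, 46.8, 290, 812, 374, 1578 and 1990 CPM in T1, above the other T cells in 4 of 7 mice. The list's sum in T1 ran from 166 to 2005 CPM by mouse, highest in 11w replicate 2.

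Genes of class II antigen presentation were also lower in T1 than in T3. H2-Ab1, a class II chain, had 163 CPM in T1 and 7738 in T3, and all 8 of the list's genes that were read were at least 2-fold lower in T1 than in T3 (median −4.87). Of 12 B cell genes read against T3, 10 were lower and 0 higher. Over all genes read against T3, 16.1% were lower.

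Cytotoxic and NK genes set T1 apart from T4. Ccl5, a chemokine of effector T and NK cells, had 361 CPM in T1 and 13068 in T4, lower in T1 in 6 of 6 mice (log2 difference −4.90 ± 4.25). By mouse in T1 it had 3.33, 540, 21, 108, 990, 0 and 2153 CPM, against 190 to 10208 in the other T cells of those mice. Nkg7, a granule protein, had 134 CPM in T1, 79.3% of it from 1 cell, and 2709 in T4. Gzmb, a granzyme, Prf1, the pore-forming perforin, Klrg1, a receptor of late effector cells, and Ctsw, a protease of cytotoxic cells, were at 0 UMIs in T1. Prf1 was scarce in the other T cells too, at no more than 5.66 CPM in any of the 7 mice. Other members of the list were present. Gzma, another granzyme, had 127, 363, 0, 27.7, 96.9, 0 and 59.4 CPM by mouse, above the other T cells in 3 of 7 mice. Ccl4, a further chemokine, had 7.01 to 294 CPM in the 7 mice, above the other T cells in 1 of 7.

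The NK receptors Ncr1, Klre1 and Klra4, and Il2rb, a receptor chain for interleukins 2 and 15, were also at 0 UMIs. In the other T cells Ncr1 was above 0 only in 2w replicate 2 (10.8 CPM). The NK list summed to 208 CPM in T1, 276 in T2, 370 in T3, 2981 in T4 and 180 in T5, so its low level was shared with T2, T3 and T5. Fcer1g and Tyrobp, adaptors shared by NK cells and macrophages, had 104 and 60.8 CPM in T1, beside 1203 and 690 in T4. Of the genes read against T4, 8 of 9 cytotoxic genes and 6 of 6 NK genes were at least 2-fold lower in T1 and 0 higher, beside 10.8% of all genes lower and 24.2% higher. Against T2, 6 of 7 cytotoxic genes were lower, beside 16.5% of all genes. Against T3, 2 of 4 cytotoxic genes were higher in T1 and 1 lower, beside 21.1% and 16.1% of all genes. Against T5, 2 of 4 were higher and 1 lower, beside 23.0% and 28%. Only 2 NK genes were read against each of T2, T3 and T5. Of them 0, 1 and 0 were lower in T1, beside 16.5, 16.1 and 28% of all genes, and 0 were higher, beside 39.5, 21.1 and 23.0%.

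Some genes of mature, resting or resident T cells were low in T1. Il7r, the interleukin 7 receptor of resting T cells, had 17.8 CPM in T1 and 448 in T4, lower in 6 of 6 mice. Cd69, an activation and residency marker, had 18.5 CPM in T1 and 709 in T4, lower in 6 of 6 mice. It belongs to a list of 16 activation and immediate early genes. Their sum was 4606 CPM in T1 and 1865, 3157, 3901 and 2277 in T2 to T5. At least 2-fold higher in T1 were 9 of 13, 2 of 16, 2 of 15 and 7 of 13 read, in that order. Lower were 1, 4, 2 and 0. Over all genes read, 39.5, 21.1, 24.2 and 23.0% were higher and 16.5, 16.1, 10.8 and 28% lower. Ccr7, the receptor that guides cells to lymph nodes, had 8.12 CPM in 3 cells. Foxp3, the transcription factor of regulatory T cells, was at 0 UMIs, and Cd40lg, a helper ligand, was at 0 UMIs as well. These zeros do not set T1 apart. In the other T cells of the 7 mice Foxp3 was also at 0, and Cd40lg was above 0 only in 5w replicate 1 (2.16 CPM).

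**Figure D4:**
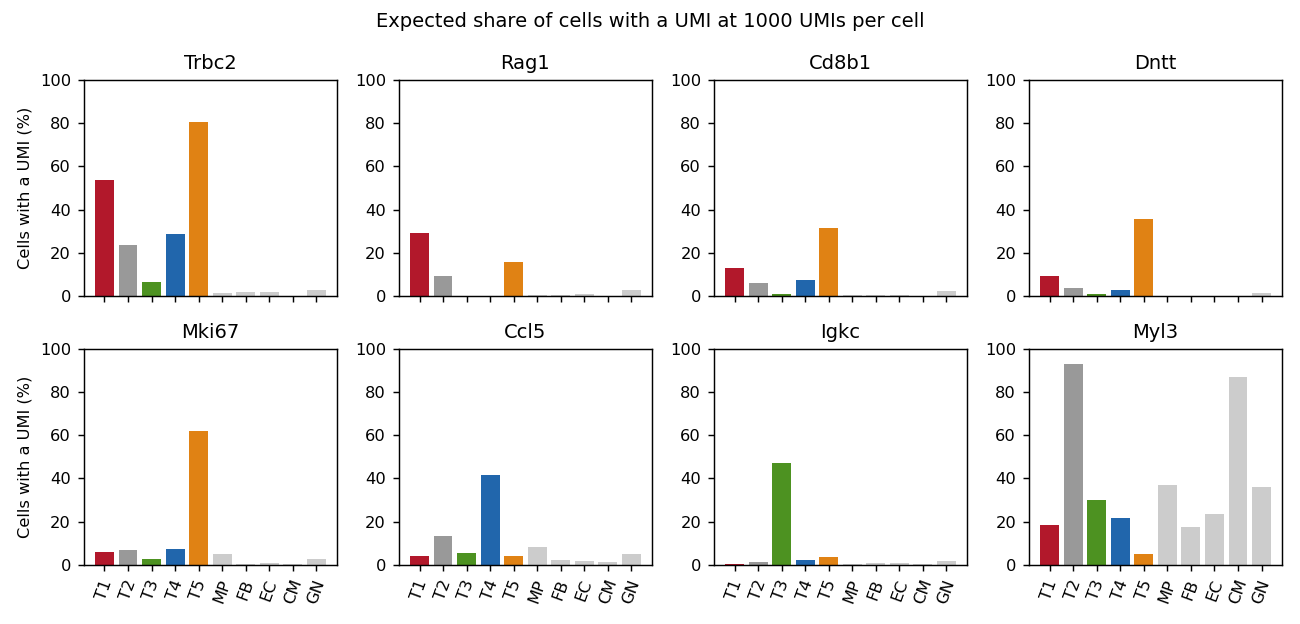
Expected share of cells with a UMI (percent, vertical axis) after thinning every cell to 1000 UMIs, for 8 genes (panels) in T1 to T5 (coloured) and in macrophages (MP), fibroblasts (FB), endothelial cells (EC), cardiomyocytes (CM) and the type GN, which the labels do not explain (grey). Trbc2 reaches 53.8% and Rag1 29.4% in T1, Igkc is highest in T3, Ccl5 in T4, and Myl3 in T2 and CM.

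Markers of heart cells moved with the comparison between T1 and T2. Summed over 12 cardiomyocyte genes, the level was 6426 CPM in T1, 72797 in T2, 12126 in T3, 8155 in T4, 1607 in T5 and 81295 in cardiomyocytes. All 12 were at least 2-fold lower in T1 than in T2 (median −3.67), beside 16.5% of all genes, and by mouse the sum in T1 ran from 1758 to 11555 CPM. Their part in the many genes higher in T1 than in T2 was not tested. Fibroblast genes summed to 4640 CPM in T1 (580 to 12308 by mouse), higher than the 894, 1896, 994 and 413 CPM of T2 to T5, and to 29842 in fibroblasts, with all 8 detected. Of those read, 6 of 6 were at least 2-fold higher in T1 than in T2, 2 of 7 than in T3, 4 of 6 than in T4 and 6 of 6 than in T5, with 0 lower. Their part in the differences of T1 from the other subclusters was not tested. Erythroid genes summed to 14204 CPM in T1 (716 to 189258 by mouse), beside 13994, 82286, 27953 and 21173 in T2 to T5, with all 6 detected.

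Among all genes, those standing farthest from T2 and T3 were ranked by the mean of both log2 differences. Of 3678 genes read, 28.4% were at least 2-fold higher in T1 and 11.2% lower. The 12 highest were Rag1 (3.84), Trbc2 (3.78), Bcl11b (3.41), Scgb3a2 (3.36), Scgb1a1 (3.22), Mettl8 (3.09), Bach1 (2.95), Lck (2.91), Cd8b1 (2.88), Ctdspl2 (2.87), Tpx2 (2.85) and Camk4 (2.77). Camk4, a calcium-dependent kinase of T cells and neurons, was found in 63 T1 cells and was above the other T cells in 6 of 7 mice.

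Some of these rested on few or single cells. Mettl8 was detected in 3, 1, 2, 0, 1, 1 and 0 T1 cells of the 7 mice. The highest Bach1 level by mouse, 2061 CPM in 2w replicate 2, came from 1 cell. Scgb3a2 and Scgb1a1, secretory proteins of the airway lining, were found in 4 and 7 T1 cells, with 84.8% and 78.1% of UMIs from 1 cell, and without plate B the differences were −0.017 and 0.48. Tpx2, a spindle protein, had 73.8% of its UMIs from 1 cell and fell to 0.29 without the 10 deepest cells. The 12 lowest were Iglc2 (−4.49), Igkc (−3.97), Mybpc3 (−3.82), Ms4a1 (−3.48), Nppb (−3.32), Hrc (−3.32), Ckmt2 (−3.19), Myl3 (−3.08), Ttn (−3.07), Tnnc1 (−2.99), H2-Eb1 (−2.95) and Sorl1 (−2.94). They were antibody chains, B cell surface and class II genes, and genes of the heart muscle cell, apart from the sorting receptor Sorl1. With T4 and T5 added to the mean, 4 of the 12 highest and 4 of the 12 lowest were shared.

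The share of T1 among T cells was compared between stages over the 11 mice with at least 10 T cells. It was 81.2% and 42.2% in the 0w mice, 5.00% and 12.5% at 2w, 48.3%, 5.26% and 15.4% at 5w, 36.6% and 0% at 8w, and 33.3% and 13.0% at 11w. With the SD over mice, the mean share was 61.7 ± 27.5% for the 2 mice at 0w, 8.75 ± 5.30% for the 2 at 2w, 23.0 ± 22.5% for 3 mice at 5w, 18.3 ± 25.9% for 2 at 8w and 23.2 ± 14.3% for the 2 at 11w. Both mice at 2w, at 8w and at 11w lay below both 0w mice, and 5w replicate 1 lay between the 0w mice. A permutation test over mice gave p = 0.242 (adjusted p = 0.242 over T1, T2 and T3), so no difference larger than the spread between mice was detectable among these shares. With annotated cells other than cardiomyocytes as the denominator, the permutation test gave p = 0.0243 (adjusted p = 0.073). Plates differed in their share of cardiomyocytes, 1.69% on plate B and 77.6% on plate A, and the part of the plate in these shares was not tested.

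The annotation also carries a label with the values PI and API, which the labels do not explain. In the 7 mice with at least 5 T1 cells, PI marked 94.6, 93.4, 16.7, 100, 93.3 and 100% of T1 cells in the first 6 and 3 of 6 T1 cells in 11w replicate 2. It marked 61.5, 22.1, 47.6, 80.0, 57.7, 27.8 and 55.0% of the other T cells. T1 was higher by 28 ± 37.7 percentage points (SD, n = 7 mice) and higher in 5 of 7 mice. A two-sided exact sign-flip test gave p = 0.125, where the smallest p possible is 0.0156.

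Stages were then compared within T1 on counts summed per mouse, in 1 edgeR fit over the 7 mice with at least 5 T1 cells. Late stages (8w with 1 mouse, 11w with 2) were set against early ones (0w with 2, 2w with 1), and 5w (1 mouse) against the same early ones. The fit had 2 residual degrees of freedom, and the lone mice were assumed to vary like the others. The labels name each sample an individual. The spread between mice behind the p-values came from the 0w and 11w pairs, with information shared across genes. In bulk sums such as these, a change in which cells were caught and a change in RNA per cell cannot be told apart.

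No gene of the T cell, CD8, thymocyte or cell cycle lists passed in either contrast (edgeR's quasi-likelihood test, adjusted p at most 0.05). Trbc2 differed by −1.32 (adjusted p = 0.716) between late and early stages and by −1.34 (adjusted p = 0.721) between 5w and early ones. Of the 13 T cell genes tested the median late difference was −0.17, while that of all 9915 genes was −0.83, so log2 values of this contrast are read against −0.83. The medians of the 3 CD8, 12 thymocyte and 18 cell cycle genes tested were 2.31, 0.37 and −4.40. These lists hold genes at 0 in a whole stage of the fit, such as Cd8a and Rag1 at 2w and Mki67 at 11w. The medians are therefore no measure of size. Of the cell cycle genes 1 of 18 was positive, beside 37.4% of all genes. Mki67, whose values depended on a few deep cells, had 251, 1049, 1033, 259, 189, 0 and 0 CPM by mouse. The Rag1 values given above, 0 in 2w replicate 2 and 89.1 to 1618 CPM in the other 6 mice, overlapped between stages. With a stage at 0, its fold is not given here. Rag1 passed in the late contrast without 11w replicate 2, and at 5w without either 11w mouse.

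Between late and early stages 5 genes passed (0.0504% of 9915), all higher late, and 681 had an unadjusted p under 0.05. They were the globin genes Hbb-bt (log2 difference 3.73 ± 0.78, SE, adjusted p = 0.00325 by edgeR), Hbb-bs (3.20 ± 0.50), Hba-a2 (2.82 ± 0.44) and Hba-a1 (2.40 ± 0.39), and Dcn, a matrix protein of fibroblasts (3.10 ± 0.65). These are transcripts known from red blood cells and fibroblasts. Hba-a1 had 5704, 2730, 1736, 258, 4999, 94909 and 36589 CPM in T1 by mouse. Both 11w mice stood above all others, and 8w replicate 1 was below 0w replicate 1.

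The cells outside T of those mice and plates had Hba-a1 at 6584, 6627, 8831, 4725, 5925, 7968 and 23103 CPM. In 11w replicate 1, 83.4% of the T1 UMIs of Hba-a1 came from 1 of 9 cells, and in 11w replicate 2, 83.5% from 1 of 6. Dcn had 1299, 1623, 112, 1138, 8957, 3457 and 891 CPM in T1, and 3673 to 10553 CPM in the cells outside T. The 11w sums held only 50048 and 67342 UMIs outside the mitochondrial genes, and 78770 and 117770 with them, as fitted. None of the 5 genes passed without 0w replicate 2 or without plate B, and 0 genes in all did in either case. Without 11w replicate 1, 80 genes passed and without 11w replicate 2, 94, with these 5 among them both times.

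**Figure D5:**
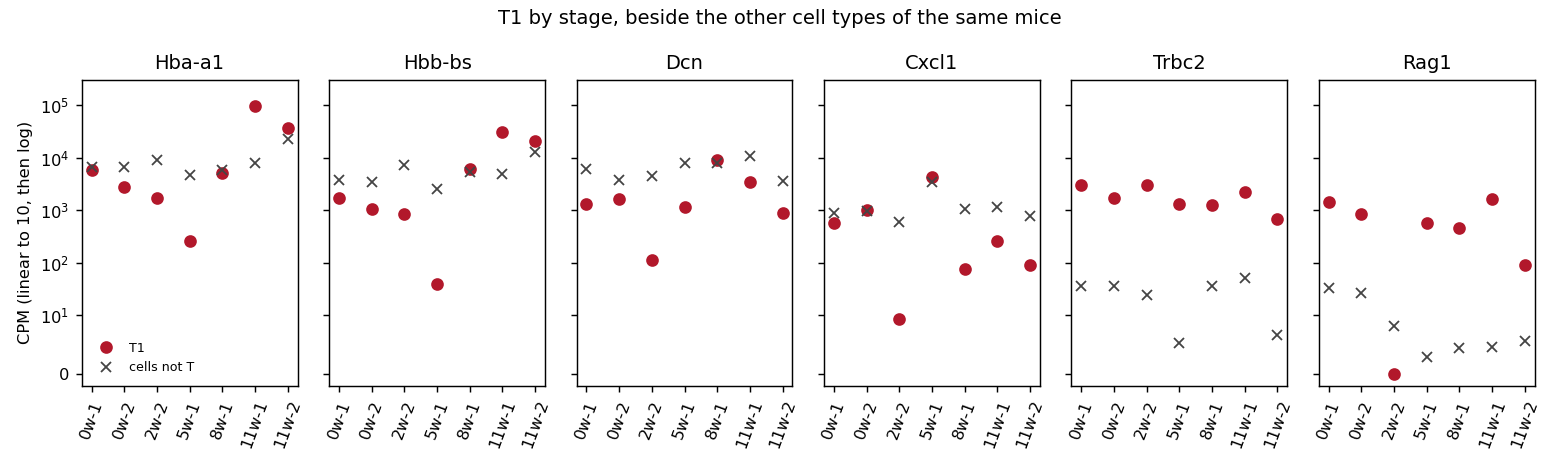
Level of 6 genes (panels) in T1 (red circles) and in cells not annotated as T (crosses) on the same plates of the 7 mice, in CPM on an axis that is linear up to 10 and logarithmic above. Hba-a1 and Hbb-bs in T1 are highest in the 2 mice at 11w, while Trbc2 stays between 668 and 2993 CPM.

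Between 5w and early stages 13 genes passed (0.131% of 9915), 2 higher and 11 lower at 5w, and 691 had an unadjusted p under 0.05. Cthrc1, a secreted matrix protein, had 1408 UMIs in 5w replicate 1, all from 1 cell, and 0 UMIs in the other 6 mice. Cxcl1, a chemokine that attracts neutrophils, was higher by 5.29 ± 1.13 (SE, adjusted p = 0.00301 by edgeR), with 97.0% of its UMIs in that mouse from 1 of 14 cells. Hbb-bs (−5.13 ± 0.83) and Hba-a1 (−3.74 ± 0.62) were lower, and the other 9 lower genes were 8 mitochondrially encoded genes and a predicted gene. Without 0w replicate 1, 0 genes passed, and without 0w replicate 2 or plate B, 2.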

How the data were processed

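The deposited table holds raw UMI counts, made by the authors, for 36950 genes in 11492 cells. STAR 2.5.2b, featureCounts, Subread 1.4.6-p1, mm10 and GRCh37 appear in the submitters' processing notes, with no statement of their roles. The strand setting and gene annotation were not given in the sources used here. Subclusters were used as deposited. No cell was filtered, doublets were not called, and 0 cell names were shared between libraries. Of 390 list genes in 34 lists, 386 matched the table.

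T1 and the gene lists were chosen with earlier results of these data known. Named genes were the defining members of each list and up to 4 others of highest CPM in T1, the 12 highest and 12 lowest mean log2 differences from T2 and T3 (at least 50 CPM; predicted, mitochondrial and ribosomal genes left out), and per stage contrast up to 5 passing genes in each direction whose average log2 CPM reached 5. Thinning to 1000 UMIs was computed as an expectation.

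Sums per mouse were fitted with edgeR 4.0.16 in R 4.3.3 (filterByExpr, TMM, robust glmQLFit, two-sided glmQLFTest, Benjamini-Hochberg over all genes). A minimum of 10 T1 cells left 5 mice, so the planned 5 was used. Shares were tested with 100000 permutations in numpy 2.4.6 and the PI label with an exact sign-flip test. Comparisons with T4 and T5 and the PI test were added after the annotation was seen. The fit was tested on simulated data. Alternatives included DESeq2 1.42.0, other factors, filters, pseudocounts, and each mouse or plate left out.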

Additional observations from a re-analysis of the deposited data

How the results depend on the processing

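The permutation test of T1 shares, adjusted over T1, T2 and T3, gave adjusted p = 0.217 and 0.415 at minimums of 5 and 20 T cells (unadjusted 0.144 and 0.282) and 0.205 to 0.726 leaving out each mouse (unadjusted 0.137 to 0.726). With annotated cells other than CM as denominator the permutation test gave an adjusted p of 0.073 and an unadjusted p of 0.0243. The difference in the PI label ran from 20.7 to 37.9 points leaving out each mouse. Genes passing between late and early stages (5) and between 5w and early stages (13) numbered 0 to 94 and 0 to 45 leaving out each mouse, 3 and 6 with no filter on low counts, 85 and 41 with DESeq2, and 2 and 29 with a minimum of 10 T1 cells, an alternative chosen after seeing the data. Without the mitochondrially encoded genes 5 passed at 5w. The late count was 10 without 5w replicate 1 and 20 without 8w replicate 1. Leaving out plate B gave 0 and 2, plate L 2 and 29, and plate E 35 late genes and no 5w contrast. Of the 5 late genes, DESeq2 called 1 (Hbb-bt). A minimum of 20 T1 cells gave no value. The cause of these changes was not tested.

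The correlation of deviations between same-numbered mice was −0.00711, read from the 0w and 11w pairs only. It cannot show what other same-numbered mice shared, and 5w replicate 1 and 8w replicate 1 shared plate E. With the replicate number as a block, 3 late and 12 5w genes passed, and the permutation test of shares gave p = 0.132 (adjusted p = 0.179).

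Rag1, with a fitted late difference of 5.18 and a 5w difference of 5.03 that did not pass, turned to −1.21 and −1.38 without 2w replicate 2 or without plate D, and leaving out each mouse they ran from −1.21 to 5.74 and from −1.38 to 5.17. Rag1 passed late without 11w replicate 2 or plate E, and at 5w without either 11w mouse, without plate L or with a minimum of 10 T1 cells. 2w replicate 2 had 0 Rag1 UMIs, so the fitted values with that mouse depend on the prior count and are no measure of size.

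Genes at least 2-fold higher and lower in T1 than in T2 and T3 (1046 and 413) numbered 320 and 178 with a pseudocount of 50 CPM, and 192 were lower with T4 and T5 included. Among followed genes at least 2-fold apart, Cd69 reversed with the mean over cells (0.24, from −1.30). Scgb3a2 (−0.017, from 3.36) and Cd24a (−0.11, from 1.14) reversed without plate B, and Mki67 (−0.070, from 1.89) without the 10 deepest T1 cells. Genes with smaller differences changed sign too. Over alternatives Cd3e (0.35) ran from −0.29 to 0.74, Cd4 (−0.12) from −0.63 to 0.62 and Ccl5 (−0.16) from −0.88 to 0.76. Nkg7 (−0.38) ran from −1.36 to 1.78 and Il7r (−0.36) from −1.05 to 0.53. Of 1135 single-gene values over alternatives, 989 kept their direction and call or moved by less than the spread. The few cells per mouse and the shallow 11w sums limit all stage values.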

Other observations

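Further groups of T cell genes were read. Tcf7 and Lef1, transcription factors of naive and developing T cells, had 115 and 40.2 CPM in T1, beside 100 and 90.5 in T4 and 563 and 236 in T5. Of 12 naive and central memory genes, 3 of 11 read were at least 2-fold higher in T1 than in T4 and 1 was lower, beside 24.2% and 10.8% of all genes read. Ptprc, the surface phosphatase CD45 of all leukocytes, had 410 CPM in 66 T1 cells and 1225 CPM in T4, and was lower in T1 in 6 of 6 mice. Effector and memory genes were lower than in T4 for 9 of 15 read and higher for 1, beside the same shares of all genes. Among the lower ones was S100a6, a calcium-binding protein, with 253 and 806 CPM.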
